A study of Mus musculus with 20 samples.

Results

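The 10 genes described here, Hspa5, Hsp90b1, Calr, Pdia4, Sdf2l1, Dnajb9, Xbp1, Atf6, Edem1 and Herpud1, encode chaperones of the endoplasmic reticulum (ER) and regulators of the unfolded protein response. They were taken by symbol from the count tables, where all of them were found among 50559 genes. All 10 passed the filter on low counts, as did 14333 genes in all. They were compared in 20 mouse RNA sequencing libraries, 5 from control livers, 5 from FGF19 + MYC tumors, 5 from Aldafermin + MYC tumors and 5 from sgTrp53 + MYC tumors.

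FGF19 is a human gut hormone that lowers bile acid synthesis in the liver, and Aldafermin is an analog of it that differs at the amino terminus. All mice were wild-type C57BL/6J females, 6 to 8 weeks old at injection, and each tumor was made by pushing plasmids into hepatocytes through the tail vein, with a transposase to integrate them. Every tumor group carried a MYC plasmid. It was combined with FGF19 in the first group, with Aldafermin in the second and, in the third, with CRISPR/Cas9 and a guide against Trp53 and no hormone. The sample labels call the livers untreated, whereas the study's methods describe livers injected with a plasmid for a red fluorescent protein. The tumors came from separate mice. Age at harvest was not used here.

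The ER folds secreted and membrane proteins, and hepatocytes, which make most plasma proteins, hold a large amount of it. When unfolded proteins accumulate, the sensors IRE1, PERK and ATF6 start the unfolded protein response: IRE1 splices Xbp1 mRNA into the form that makes an active transcription factor, ATF6 is cut to release another, and PERK slows translation and raises ATF4. XBP1 and ATF6 act on promoters of chaperones, disulfide isomerases and proteins that pull misfolded chains out of the ER for degradation. Counts per gene measure neither the splicing of Xbp1 nor the cutting of ATF6. The genes lie in GRCm39 (GENCODE vM39) at chr2:34661982-34668880 for Hspa5, chr10:86526073-86541446 for Hsp90b1, chr8:85567946-85573667 for Calr, chr6:47770077-47790462 for Pdia4, chr16:16948002-16950252 for Sdf2l1, chr12:44252341-44257171 for Dnajb9, chr11:5470606-5483027 for Xbp1, chr1:170532026-170696208 for Atf6, chr6:108805457-108838955 for Edem1 and chr8:95113022-95123141 for Herpud1, and reads over all their exons were counted together.

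Values are CPM, the reads of a gene relative to the library's reads on genes, with libraries scaled by the trimmed mean of M values (TMM). Libraries held 18004977 to 66354724 reads on genes. The sgTrp53 + MYC libraries, which form a count table of their own, were the deepest, with at least 54042455 reads. In them 12.9% ± 1.56 (SD, n = 5) of reads were ambiguous between genes, against 4.81% ± 0.621 in Aldafermin + MYC, 4.74% ± 1.23 in FGF19 + MYC tumors and 4.48% ± 0.783 in livers. Reads not aligned averaged 5.87% in sgTrp53 + MYC, 20.6% in Aldafermin + MYC and 26.4% in FGF19 + MYC tumors, and 23.6% in livers. Reads of low alignment quality averaged 6.80%, 13.5%, 13.2% and 10.9% in the same order. Table and group cannot be told apart in any comparison with the sgTrp53 + MYC tumors. Trp53, the target of the guide, measured 18.7, 79.9, 35.4, 51.0 and 48.8 CPM in the sgTrp53 + MYC tumors, 90.8 to 176 CPM in the other tumors and 28.8 to 36.4 CPM in the livers. The sgTrp53 + MYC tumors lay below all other tumors, and a guide that disrupts a protein can leave part of its mRNA.

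The markers of the labelled tissue were present in every library. The 8 hepatocyte markers, Alb, Ttr, Apoa1, Apob, Trf, Serpina1c, Fgb and Cps1, summed to 209856 to 269925 CPM in livers, 14268 to 37509 CPM in FGF19 + MYC, 13789 to 29754 CPM in Aldafermin + MYC and 5231 to 14089 CPM in sgTrp53 + MYC tumors. All 8 were lower in both kinds of tumor than in livers. Since the samples were pieces of tissue, fewer cells of a type and less RNA per cell cannot be told apart. Plasma and acinar cells, which are rich in ER, left few reads. The 8 B and plasma cell markers summed to at most 8.70 CPM in any library and the 5 acinar markers to at most 3.48 CPM. Of these, Ighm, Igkc and Prss2 were at 0 in every library. For them, absence cannot be told from a gene left uncounted, so they do not measure these cells.

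Promoters are shown because the response acts through known elements in them. The ER stress response element was searched as CCAAT and CCACG with any 9 bases between them. Its second form was ATTGG and CCACG with any 1 base between them. The unfolded protein response element was TGACGTGG, and the E-box, a sequence that MYC can bind, was CACGTG. All were sought on both strands, from 250 bases upstream to 50 bases downstream of each start site in RefSeq (table of build GRCm38.p6). Of the 10 genes, 9 had an entry, Atf6 being the other. The first element occurred in 3 of the 9, Hspa5, Hsp90b1 and Calr, against 37 of all 27025 genes with a promoter (0.137%). The second occurred in Herpud1, against 12 of all genes (0.0444%). TGACGTGG occurred in none of the 9 and in 0.714% of all genes, and the E-box in Dnajb9 and Calr and in 8.09% of all genes. The stress elements were already known from genes of this response, so the shares of the members describe them and are no test of enrichment. No match overlapped another. For the 4 promoters with a stress element, the 250 upstream bases are printed 5′ to 3′ in the sense of the gene. Stress elements are in capitals, and the positions of these printed windows are exact matches to GRCm39.
Hspa5: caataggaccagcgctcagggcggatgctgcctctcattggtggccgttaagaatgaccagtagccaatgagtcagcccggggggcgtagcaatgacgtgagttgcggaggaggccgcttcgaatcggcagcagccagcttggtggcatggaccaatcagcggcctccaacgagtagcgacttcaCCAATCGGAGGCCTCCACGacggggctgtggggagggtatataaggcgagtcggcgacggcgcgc
Hsp90b1: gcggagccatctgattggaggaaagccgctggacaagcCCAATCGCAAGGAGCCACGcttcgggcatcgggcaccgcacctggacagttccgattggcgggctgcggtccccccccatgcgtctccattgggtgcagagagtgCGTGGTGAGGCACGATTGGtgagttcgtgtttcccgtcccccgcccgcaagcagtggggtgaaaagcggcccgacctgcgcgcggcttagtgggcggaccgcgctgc
Calr: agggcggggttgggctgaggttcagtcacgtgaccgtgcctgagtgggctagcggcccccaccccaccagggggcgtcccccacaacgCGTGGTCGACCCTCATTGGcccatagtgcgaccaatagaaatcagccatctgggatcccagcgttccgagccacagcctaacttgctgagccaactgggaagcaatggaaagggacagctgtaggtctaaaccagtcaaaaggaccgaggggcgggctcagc
Herpud1: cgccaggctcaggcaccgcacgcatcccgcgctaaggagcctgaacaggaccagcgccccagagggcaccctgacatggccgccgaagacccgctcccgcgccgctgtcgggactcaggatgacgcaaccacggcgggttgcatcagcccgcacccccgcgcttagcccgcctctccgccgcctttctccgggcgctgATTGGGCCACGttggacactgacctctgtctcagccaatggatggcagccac
The windows are chr2:34661852-34662101 on the plus strand for Hspa5, chr10:86541309-86541558 on the minus strand for Hsp90b1, chr8:85573561-85573810 on the minus strand for Calr and chr8:95112807-95113056 on the plus strand for Herpud1. The element of Hspa5 lay 65 to 47 bases before the start, those of Hsp90b1 at 212 to 194 and, on the other strand, at 107 to 89, that of Calr on the other strand at 162 to 144 and that of Herpud1 at 52 to 42. A match describes letters in a window and is not shown here to be a bound site. Of these 4 genes, measured against livers in the FGF19/Aldafermin + MYC tumors, Hspa5 rose, Herpud1 fell, and Hsp90b1 and Calr did not pass the test, as set out next.

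The comparisons were made for the 10 FGF19 + MYC and Aldafermin + MYC tumors together, as the study pooled them, against livers, for the sgTrp53 + MYC tumors against the same livers, and between both kinds of tumor. They share libraries, so their values are given side by side and are not independent of each other. Against livers, Hspa5 was higher in the FGF19/Aldafermin + MYC tumors, while Edem1, Dnajb9, Herpud1 and Atf6 were lower. That makes 1 gene higher and 4 lower of 10, and 73.7% of all genes tested were called in that comparison, 39.2% as higher and 34.5% as lower. In the sgTrp53 + MYC tumors no gene of the 10 was higher than in livers and 7 were lower, the same 4 with Calr, Pdia4 and Xbp1, where 69.9% of all genes were called, 36.9% as higher and 33% as lower. In FGF19/Aldafermin + MYC tumors the 5 called genes did not overlap with livers, as was so for 28.5% of all genes in the higher and 25.7% in the lower direction, and in sgTrp53 + MYC tumors the 7 did not, as was so for 27.4% of all genes in the lower direction and 28.8% in the higher. The median log2 fold change of the 10 was -0.34 and -1.13 in these comparisons, against 0.10 and 0.07 over all genes tested.

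Between the tumors, 7 of the 10 genes were higher in FGF19/Aldafermin + MYC than in sgTrp53 + MYC tumors: Hspa5, Hsp90b1, Calr, Pdia4, Sdf2l1, Xbp1 and Edem1. None was lower, and Atf6, Dnajb9 and Herpud1 did not pass the test. Over all genes tested 23.7% were called, 11.6% as higher and 12.1% as lower. The median log2 fold change of the 10 was 0.67, against -0.02 over all genes. Calls here and below are edgeR's quasi-likelihood test with Benjamini-Hochberg adjusted p under 0.05 over the 14333 genes.

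**Figure D1:**
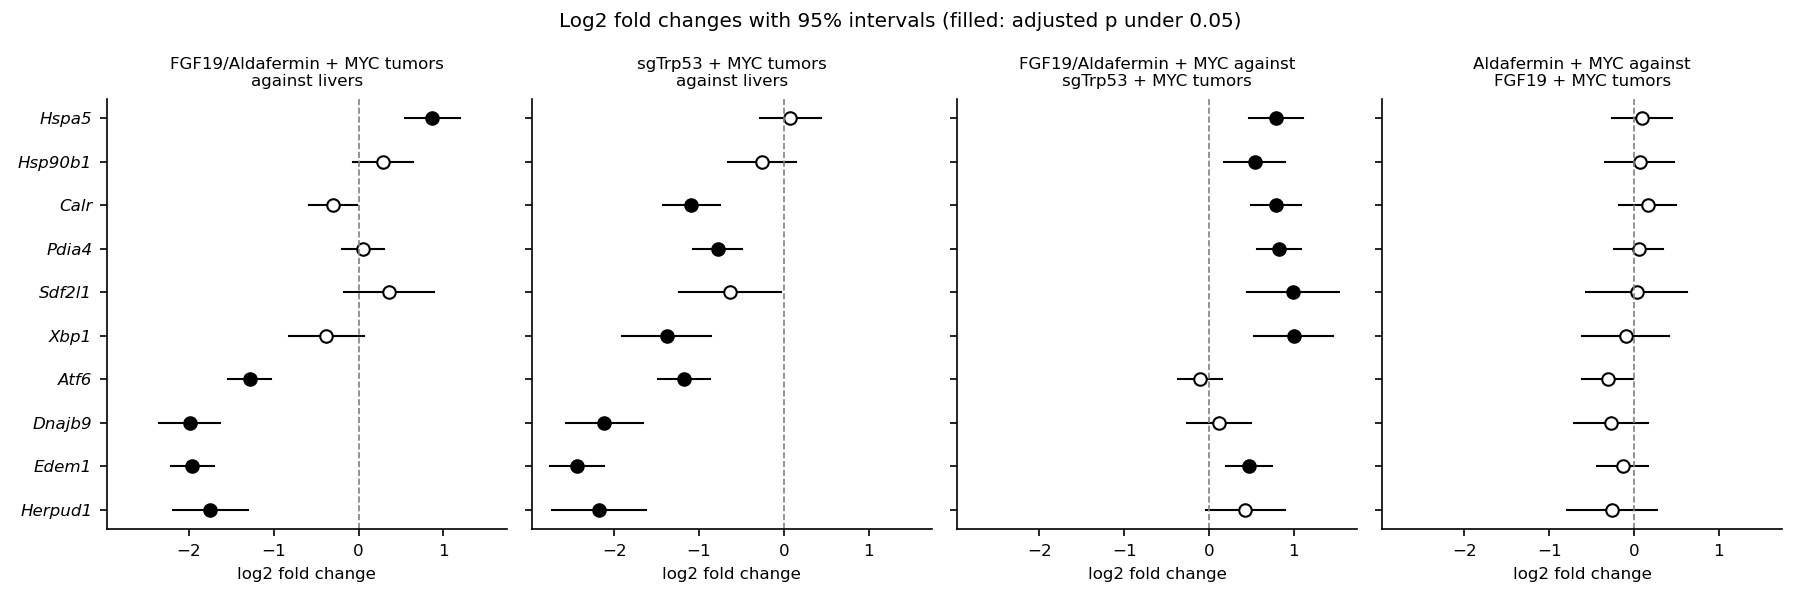
Log2 fold changes of the 10 genes in 4 comparisons, with lines for the 95% intervals and filled circles for an adjusted p under 0.05. Against livers, Edem1, Dnajb9, Herpud1 and Atf6 lie on the left for both kinds of tumor, and between the tumors 7 filled circles lie to the right of 0 and none to the left.

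Hspa5, the chaperone BiP that holds unfolded chains and keeps the sensors inactive, was the only one of the 10 called higher in tumors than in livers. It measured 473, 385, 498, 619 and 507 CPM in livers, and 509.9, 555, 423, 700.1 and 432 CPM in sgTrp53 + MYC tumors. FGF19 + MYC tumors had 629, 961, 1005, 919 and 878 CPM and Aldafermin + MYC tumors 917, 833, 912, 902 and 1126 CPM. All 10 FGF19/Aldafermin + MYC tumors were above every liver, the closest being 629 against 619 CPM, whereas the sgTrp53 + MYC tumors fell within the range of the livers but for the highest at 700.1 CPM. The log2 fold change over livers was 0.87 ± 0.15 (SE), 1.83-fold, in FGF19/Aldafermin + MYC tumors (adjusted p = 4.28e-05, edgeR quasi-likelihood test). In sgTrp53 + MYC tumors it was 0.08 ± 0.17 (95% interval -0.28 to 0.43, adjusted p = 0.698). Between the tumors the difference was 0.79 ± 0.15 on the log2 scale, 1.73-fold (adjusted p = 0.00116).

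Hsp90b1, the ER form of HSP90 known as GRP94, did not pass the test against livers in either kind of tumor. Livers had 895, 890.4, 904, 847 and 745 CPM and sgTrp53 + MYC tumors 521, 656, 605, 1119 and 682 CPM. Aldafermin + MYC tumors held a narrow range of 1005 to 1095 CPM, and FGF19 + MYC tumors spread from 631 to 1230.2 CPM. The ranges of all groups overlapped but for Aldafermin + MYC tumors and livers, and 1 sgTrp53 + MYC tumor at 1119 CPM stood above the rest of its group. The log2 fold changes from livers were 0.28 ± 0.17 (adjusted p = 0.139) and -0.26 ± 0.19 (adjusted p = 0.243, edgeR). The tumors differed from each other by 0.54 ± 0.17 (adjusted p = 0.0278), a call that was lost on leaving out any of 4 of the 5 sgTrp53 + MYC tumors, with adjusted p of 0.0654 to 0.0773. Without replicate 4 of that group, the tumor at 1119 CPM, the difference was 0.76 and the log2 fold change of sgTrp53 + MYC tumors from livers was -0.47 (adjusted p = 0.0191, edgeR). Without FGF19 + MYC replicate 1 the rise over livers passed the test, at 0.35 (adjusted p = 0.0418). The difference between the tumors was also lost without the filter on low counts (adjusted p = 0.129), with only the groups compared (0.0517) and with FGF19 + MYC tumors alone (0.0804, edgeR).

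Calr encodes calreticulin, which binds sugar chains of folding glycoproteins and stores calcium. Livers had 1109, 1021, 762, 1053 and 777 CPM. The values were 570.3, 767, 764, 715 and 810.5 CPM in FGF19 + MYC, 847, 712, 726, 785 and 986 CPM in Aldafermin + MYC and 525, 451, 339, 497 and 405 CPM in sgTrp53 + MYC tumors. Every sgTrp53 + MYC tumor was below every other tumor and every liver, while the other tumors overlapped with livers. Between the kinds of tumor, 3.28% of all genes were higher and 2.42% lower without overlap. Calr was 2.13-fold lower in sgTrp53 + MYC tumors than in livers (log2 fold change -1.09 ± 0.16, adjusted p = 6.66e-06, edgeR). The difference between the tumors was 0.79 ± 0.14 (adjusted p = 0.000709). In FGF19/Aldafermin + MYC tumors the log2 fold change from livers was -0.30 ± 0.14, just outside the threshold (adjusted p = 0.0549). It passed without FGF19 + MYC replicate 5, liver replicate 3 or liver replicate 5, at -0.32, -0.38 and -0.37. It also passed as lower with RLE factors (adjusted p = 0.0245), in DESeq2 (0.0107), with only the groups compared (0.0277), with GC and length trends removed (0.0488) and with FGF19 + MYC tumors alone (0.0405), at -0.38 to -0.29.

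Pdia4, the disulfide isomerase ERp72, was lower in sgTrp53 + MYC tumors than in every other library. It measured 259.8, 244, 210.3, 230.4 and 178 CPM in livers and 125, 142, 116, 157 and 115 CPM in sgTrp53 + MYC tumors. FGF19 + MYC tumors had 174, 239, 249.6, 250.03 and 226 CPM and Aldafermin + MYC tumors 235, 213, 219.8, 239.7 and 274 CPM. The highest sgTrp53 + MYC tumor, at 157 CPM, was below every other library, and the livers lay among the remaining tumors. The log2 fold change from livers was 0.05 ± 0.12 in FGF19/Aldafermin + MYC tumors (95% interval -0.20 to 0.30) and -0.78 ± 0.14 in sgTrp53 + MYC tumors (adjusted p = 5.38e-05, edgeR). Between the tumors it was 0.82 ± 0.12, 1.77-fold, with the smallest adjusted p of the 10 genes in that comparison (0.000145).

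Sdf2l1, a small partner of BiP that helps keep chains from aggregating, varied widely within groups. Livers had 30.3, 29.2, 20.6, 49.4 and 23.2 CPM and sgTrp53 + MYC tumors 32.9, 25.5, 10.4, 14.4 and 15.1 CPM. It ranged over 29.5 to 50.03 CPM in FGF19 + MYC and 31.5 to 58.6 CPM in Aldafermin + MYC tumors, and all groups overlapped. Only the difference between the tumors passed the test, at 0.99 ± 0.26 on the log2 scale, 1.99-fold (adjusted p = 0.00961, edgeR). It was 0.47 once trends with GC content and length were removed (adjusted p = 0.068), and the gene is the shortest of the 10 with the highest GC content, 1113 exon bases and 56.7%. Against livers the changes were 0.36 ± 0.25 (adjusted p = 0.206) and -0.63 ± 0.29 (adjusted p = 0.0566). The first passed without liver replicate 4, at 0.59, and the second without any of liver replicates 3 and 5 and sgTrp53 + MYC replicates 1 and 2, at -0.90 to -0.73. The second also passed in DESeq2 (adjusted p = 0.0458), in the likelihood ratio test of edgeR (0.0472) and with GC and length trends removed, at -0.67 (0.00772).

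**Figure D2:**
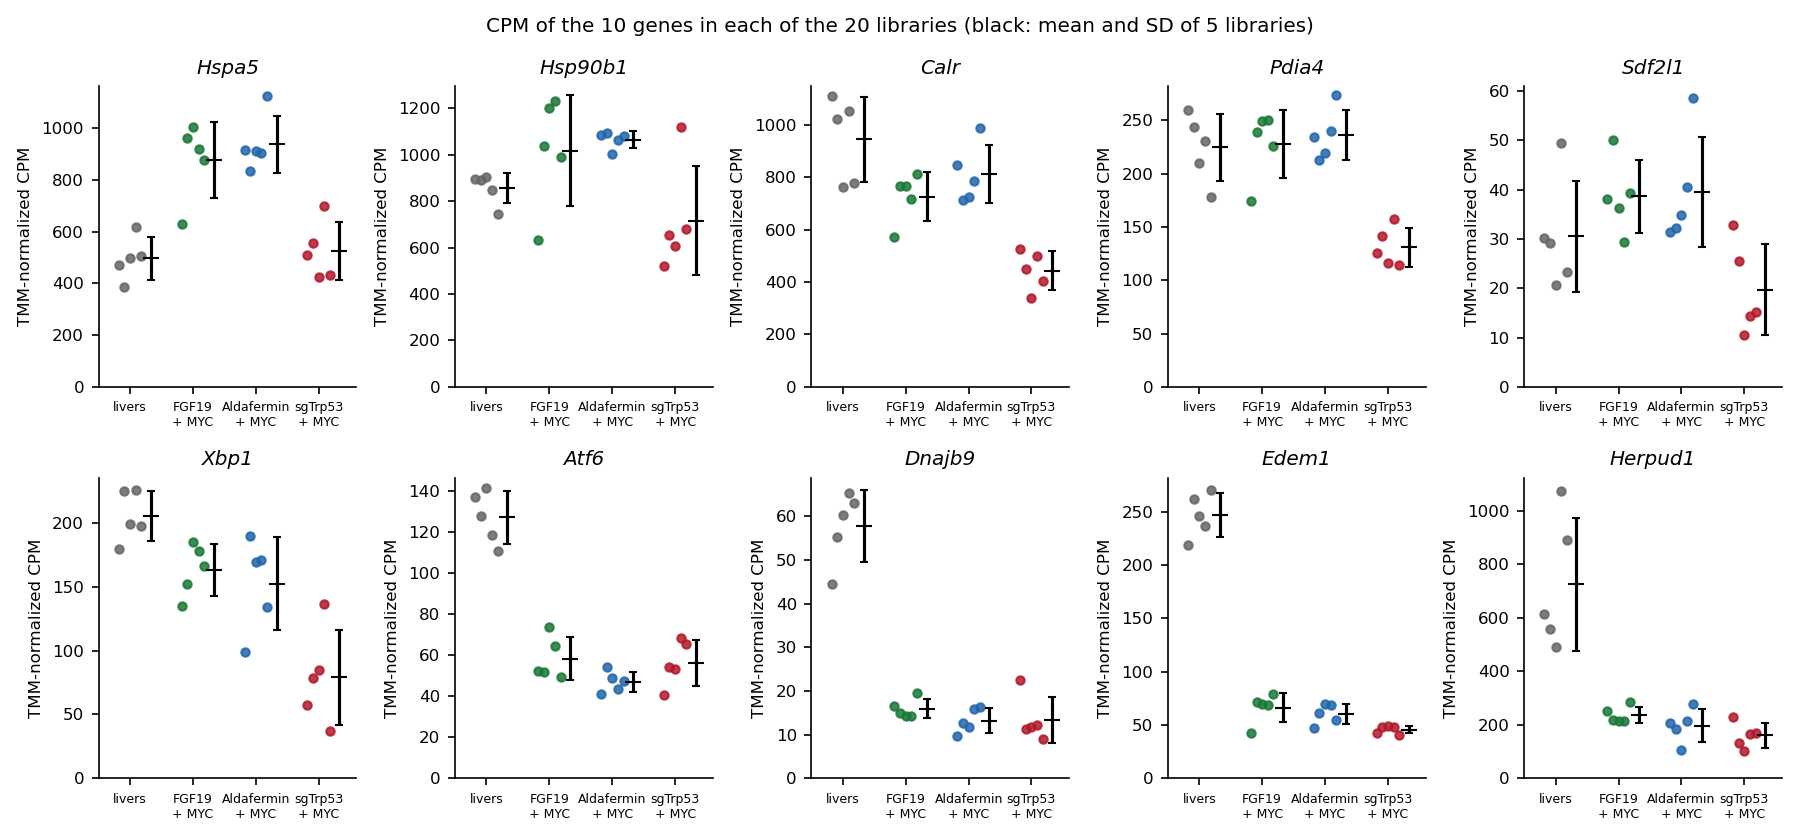
CPM of each of the 10 genes in each of the 20 libraries, a point for each library and a black dash with error bars for the mean and SD of each group, on axes that start at 0. Hspa5 is above all livers in the 10 FGF19/Aldafermin + MYC tumors, Calr and Pdia4 are below all other libraries in the sgTrp53 + MYC tumors, and Edem1, Dnajb9, Herpud1 and Atf6 are below all livers in the 15 tumors.

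Xbp1, whose spliced mRNA encodes a main activator of the response, fell in sgTrp53 + MYC tumors. It measured 179.8, 225, 199, 226 and 197 CPM in livers. FGF19 + MYC tumors had 135, 152, 185, 178 and 166 CPM, Aldafermin + MYC tumors 98.6, 189.6, 169, 171 and 134 CPM and sgTrp53 + MYC tumors 57.7, 78.4, 84.7, 137 and 37.3 CPM. The sgTrp53 + MYC tumors were all below the lowest liver, and only the highest of them, at 137 CPM, reached the levels of the other tumors. Xbp1 was 2.60-fold lower there than in livers (log2 fold change -1.38 ± 0.25, adjusted p = 6.76e-05, edgeR). The difference between the tumors was 1.00 ± 0.22, 2.00-fold (adjusted p = 0.00348). FGF19/Aldafermin + MYC tumors differed from livers by -0.38 ± 0.21 (adjusted p = 0.108), which passed when only the groups compared were fitted, at -0.44 (adjusted p = 0.00673, edgeR).

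Atf6, the other transcription factor of the response, was lower than in livers in both kinds of tumor and by a similar size. Livers had 111 to 142 CPM, FGF19 + MYC tumors 49.3 to 73.7 CPM, Aldafermin + MYC tumors 41.3 to 54.1 CPM and sgTrp53 + MYC tumors 40.4 to 68.4 CPM. No tumor reached the lowest liver, and the tumor groups overlapped with each other. The log2 fold change from livers was -1.28 ± 0.12 in FGF19/Aldafermin + MYC (adjusted p = 1.3e-08) and -1.17 ± 0.15 in sgTrp53 + MYC tumors (adjusted p = 7.62e-07, edgeR). The difference between the tumors was -0.11 ± 0.12, with a 95% interval of -0.37 to 0.15.

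Dnajb9, the BiP partner ERdj4 that represses IRE1 and is a known target of XBP1, fell in both kinds of tumor. It measured 44.6, 55.2, 60.4, 65.4 and 63.1 CPM in livers. FGF19 + MYC tumors had 16.6, 15.0, 14.2, 14.4 and 19.4 CPM, Aldafermin + MYC tumors 9.59, 12.6, 11.8, 15.9 and 16.3 CPM and sgTrp53 + MYC tumors 22.5, 11.4, 11.7, 12.2 and 8.96 CPM. The highest tumor, of sgTrp53 + MYC, had 22.5 CPM and the lowest liver 44.6 CPM, so tumors and livers did not overlap. Dnajb9 was 3.98-fold lower in FGF19/Aldafermin + MYC (log2 fold change -1.99 ± 0.17, adjusted p = 3.55e-09) and 4.33-fold lower in sgTrp53 + MYC tumors (-2.11 ± 0.22, adjusted p = 4.8e-08, edgeR). Between the tumors the difference was 0.12 ± 0.18 (95% interval -0.26 to 0.50).

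Edem1, a lectin that marks misfolded glycoproteins for degradation, fell most in the sgTrp53 + MYC tumors. Livers had 219, 262, 246, 237 and 271 CPM. The values were 42.5, 71.6, 70.1, 68.8 and 78.7 CPM in FGF19 + MYC, 47.3, 61.4, 69.9, 68.9 and 54.8 CPM in Aldafermin + MYC and 43.0, 47.9, 48.7, 47.8 and 40.7 CPM in sgTrp53 + MYC tumors. The 15 tumors lay far below the livers, and the sgTrp53 + MYC tumors overlapped with the lowest of the others. Edem1 was 3.90-fold lower in FGF19/Aldafermin + MYC tumors (log2 fold change -1.96 ± 0.12, adjusted p = 2.77e-11) and 5.41-fold lower in sgTrp53 + MYC tumors (-2.43 ± 0.15, adjusted p = 5.44e-11, edgeR). The difference between the tumors, 0.47 ± 0.13, passed the test (adjusted p = 0.0122).

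Herpud1, a membrane protein of the ubiquitin ligase complex that removes misfolded chains, varied widely among livers, from 489 to 1075 CPM. The tumors ranged over 214 to 285 CPM in FGF19 + MYC, 106 to 278 CPM in Aldafermin + MYC and 103 to 230.5 CPM in sgTrp53 + MYC. All of them were below the lowest liver. The fall against livers was 3.36-fold in FGF19/Aldafermin + MYC (log2 fold change -1.75 ± 0.21, adjusted p = 4.33e-07) and 4.53-fold in sgTrp53 + MYC tumors (-2.18 ± 0.27, adjusted p = 5.88e-07, edgeR). The difference between the tumors, 0.43 ± 0.23, did not pass the test (adjusted p = 0.177).

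The levels against livers depend on how libraries are scaled. With total counts in place of TMM, an alternative chosen after seeing the data, the median log2 fold change of all genes moved from 0.10 to 0.94 in FGF19/Aldafermin + MYC tumors and from 0.07 to 0.95 in sgTrp53 + MYC tumors, and the share of calls that were higher moved from 53.2% to 76.9% and from 52.8% to 77.9%. On that scale 5 of the 10 genes were higher and 4 lower than livers in FGF19/Aldafermin + MYC tumors, and 2 were higher and 3 lower in sgTrp53 + MYC tumors. Dnajb9, Edem1 and Herpud1 were lower than livers in both kinds of tumor under either scaling, and Hspa5 was higher in FGF19/Aldafermin + MYC tumors under both. Hspa5 in sgTrp53 + MYC tumors was at 0.95 on that scale, which is the median of all genes, and Xbp1 at -0.49, Atf6 at -0.29, Calr at -0.22 and Pdia4 at 0.10 did not pass the test there. Between the tumors the median of all genes was -0.02 and -0.06 under the respective scalings, and of the 7 genes only Hsp90b1 did not pass on total counts (adjusted p = 0.0575, edgeR).

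Ratios within a library do not depend on the scaling. Hspa5 to Edem1 was 1.47 to 2.62 in livers, 11.2 to 14.8 in FGF19 + MYC, 13.1 to 20.5 in Aldafermin + MYC and 8.68 to 14.6 in sgTrp53 + MYC tumors. Every tumor thus had a higher ratio of this chaperone to this degradation factor than every liver. Hspa5 to Dnajb9 was 6.98 to 10.6 in livers, 37.8 to 70.8 in FGF19 + MYC, 56.8 to 95.6 in Aldafermin + MYC and 22.7 to 57.3 in sgTrp53 + MYC tumors. Hspa5 to Herpud1 was 0.571 to 1.02 in livers and 2.21 or more in every tumor. Hsp90b1 to Edem1 rose from 2.75 to 4.09 in livers to at least 12.1 in every tumor, and Calr to Edem1 from 2.87 to 5.07 to at least 6.97. These pairs were chosen after the values were known and describe those genes alone. Dnajb9, a partner of BiP, fell as Edem1 and Herpud1 did. Hspa5 to Hsp90b1 overlapped between sgTrp53 + MYC tumors, at 0.626 to 0.979, and livers, at 0.433 to 0.732, and lay at 0.747 or more in the other tumors.

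**Figure D3:**
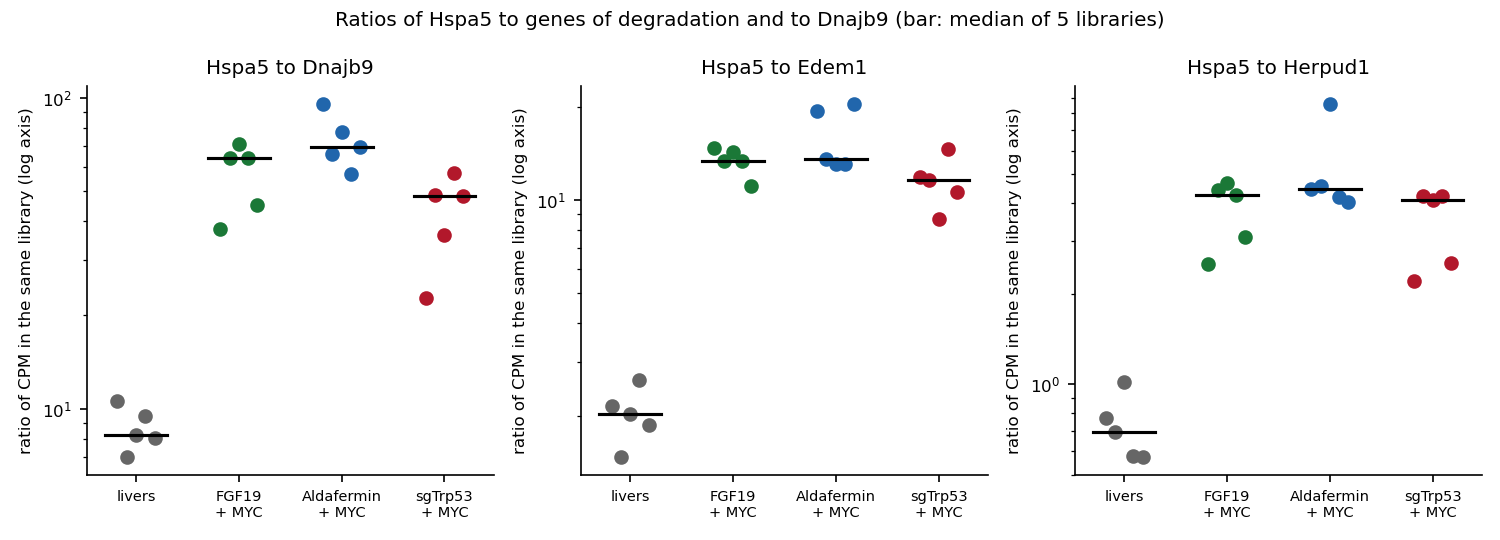
Ratio of Hspa5 to Dnajb9, to Edem1 and to Herpud1 in each library, on log axes, with a bar for the median of 5 libraries. In each panel all 15 tumors lie above all 5 livers, with Hspa5 to Edem1 at most 2.62 in livers and at least 8.68 in tumors.

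To compare levels between genes, CPM was divided by the length of the exons in kilobases. That length joins the exons of all GENCODE transcripts of a gene, whereas reads were counted on RefSeq genes. The order of levels between genes depends on these lengths. In livers the order was Calr at 248 ± 42.7 CPM per kilobase (SD, n = 5), Herpud1 at 187 ± 63.9, Hsp90b1 at 140.1 ± 10.8 and Hspa5 at 89.4 ± 15.1, then Pdia4 at 31.3 ± 4.41, Xbp1 at 29.6 ± 2.85, Sdf2l1 at 27.4 ± 10.1 and Edem1 at 26.0 ± 2.17, with Dnajb9 at 13.9 ± 1.99 and Atf6 at 13.0 ± 1.30 lowest. Within the first 3, within the 4 genes from Pdia4 to Edem1, and between Dnajb9 and Atf6, neighbours differed by less than their spread. In FGF19 + MYC tumors Calr at 190.3 ± 24.4, Hsp90b1 at 167 ± 39.1 and Hspa5 at 158 ± 26.5 CPM per kilobase stood together at the top, and Herpud1 had dropped to 61.0 ± 7.95. In sgTrp53 + MYC tumors the same 3 genes led, Hsp90b1 at 117 ± 38.2, Calr at 116 ± 19.4 and Hspa5 at 94.3 ± 20.3. Of these, Hsp90b1 and Calr differed by less than their spread. In FGF19 + MYC tumors Edem1 measured 6.99 ± 1.46 CPM per kilobase, against 23.6 ± 2.91 for Xbp1 and 34.7 ± 6.67 for Sdf2l1. Dnajb9 had the lowest mean in all 3 tumor groups.

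**Figure D4:**
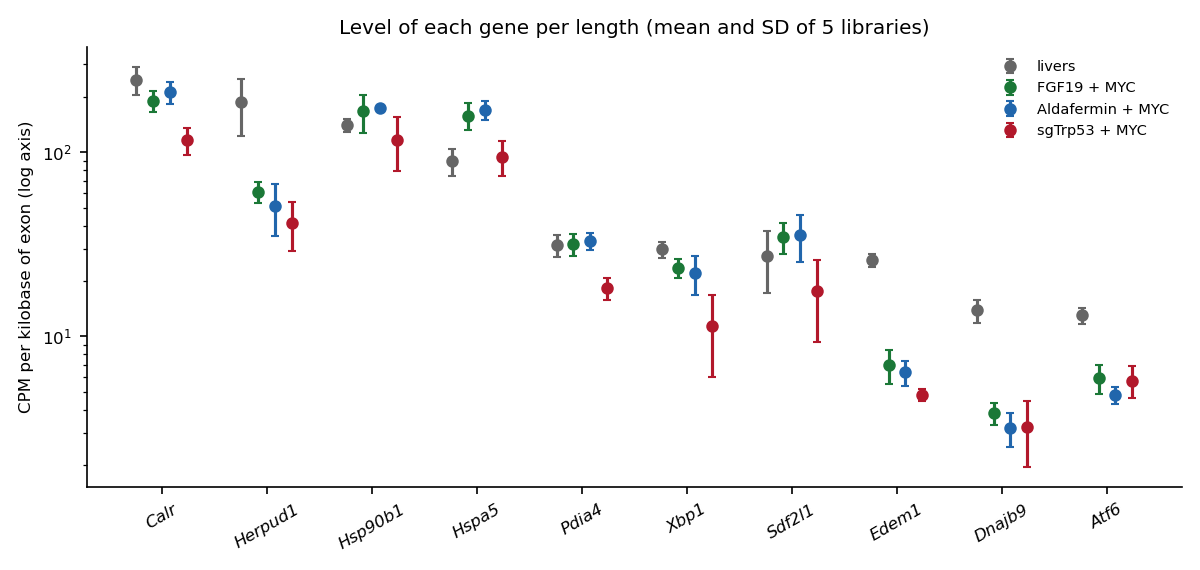
Mean level of each gene in CPM per kilobase of exon, on a log axis, with bars for the SD of 5 libraries in each group. Calr, Hsp90b1 and Hspa5 are the highest in the tumors, and Herpud1 falls from 187 in livers to 61.0, 50.9 and 41.3 in the tumor groups.

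Aldafermin + MYC and FGF19 + MYC tumors were compared for all 10 genes, and none of them passed edgeR's quasi-likelihood test. In each of the 10 the groups overlapped, where 1.07% of all genes were higher and 0.391% lower without overlap. No gene of all 14333 passed that test (0%), while 1048 genes (7.31%) and, among the 10, Atf6 had an unadjusted p under 0.05. With DESeq2 96 genes were called, with the likelihood ratio test of edgeR 59 and with RLE factors 2, none of them among the 10. For Hspa5 the log2 difference, Aldafermin + MYC over FGF19 + MYC, was 0.09 ± 0.17, with a 95% interval of -0.26 to 0.45. The intervals were -0.23 to 0.34 for Pdia4, -0.17 to 0.50 for Calr, -0.34 to 0.47 for Hsp90b1 and -0.44 to 0.17 for Edem1. They were wider for Xbp1, -0.61 to 0.41, for Dnajb9, -0.70 to 0.17, for Sdf2l1, -0.57 to 0.63, and for Herpud1, -0.80 to 0.27. Atf6 measured 47.0 ± 4.97 CPM in Aldafermin + MYC and 58.3 ± 10.4 CPM in FGF19 + MYC tumors (SD, n = 5), a log2 difference of -0.31 ± 0.15 (95% interval -0.61 to -0.01, unadjusted p = 0.0458, adjusted p = 0.669 in edgeR). No difference between hormone and analog was detectable in these mRNAs at 5 tumors a group, and differences within the intervals cannot be told from 0. The amounts of hormone and analog in these mice were not analysed here.

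Other genes of the ER were read from fixed lists of the pathway. Of 20 other genes of ER-associated degradation, 12 were lower and 1 was higher in FGF19/Aldafermin + MYC tumors than in livers, and 13 were lower and 2 higher in sgTrp53 + MYC tumors. The median log2 fold changes of this list were -0.47 and -0.69, against 0.10 and 0.07 for all genes. Over all genes 34.5% were lower and 39.2% higher in the first comparison, and 33% and 36.9% in the second. Derl2 and Derl3, parts of the channel through which chains leave the ER, had log2 fold changes of -1.84 and -2.41 in FGF19/Aldafermin + MYC tumors. Derl3 was at low levels, 5.72 ± 3.32 CPM in livers and 1.07 ± 0.418 CPM in these tumors, against 118 ± 21.0 and 32.8 ± 4.48 CPM for Derl2. Sel1l, the partner of the ligase HRD1, fell from 201 ± 21.1 CPM to 89.4 ± 15.6 and 59.1 ± 18.3 CPM in the respective tumors, and the 0.60 ± 0.16 between them passed the test (adjusted p = 0.0137). Between the tumors only Sel1l was higher and Ube2j1, a ubiquitin-conjugating enzyme, lower (log2 fold change -0.36). Over all genes 11.6% were higher and 12.1% lower in that comparison.

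Of 16 other ER chaperones 15 were tested. In FGF19/Aldafermin + MYC tumors 5 were higher and 5 lower than in livers. These counts are near the shares of all genes, 39.2% higher and 34.5% lower. In sgTrp53 + MYC tumors 2 were higher and 10 lower, where all genes had 36.9% higher and 33% lower. Hyou1, a helper of BiP that exchanges its nucleotide, rose from 133 ± 26.6 CPM in livers to 232 ± 37.9 CPM in FGF19/Aldafermin + MYC tumors and was at 119 ± 34.4 CPM in sgTrp53 + MYC tumors. Its log2 fold change between the tumors was 0.96 ± 0.18 (adjusted p = 0.00086, edgeR). Creld2 was also higher than in sgTrp53 + MYC tumors, by 0.73, and Ppib, a prolyl isomerase, by 0.77. Manf rose over livers by 1.37 and Fkbp11 by 4.20 in FGF19/Aldafermin + MYC tumors, and Dnajc3, the BiP partner p58IPK, fell by 1.00 on the log2 scale. Between the tumors 6 of the 15 were higher and none was lower, where 11.6% of all genes were higher.

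Of 17 oxidoreductases, 6 were higher and 4 lower than in livers in FGF19/Aldafermin + MYC tumors, and 4 were higher and 6 lower in sgTrp53 + MYC tumors. These counts are near the shares of all genes, 39.2% higher and 34.5% lower, and 36.9% and 33%. The oxidase Ero1a and its relative Ero1b went opposite ways: Ero1a rose from 20.04 ± 3.50 to 53.1 ± 8.72 CPM in FGF19/Aldafermin + MYC tumors (log2 fold change 1.40 ± 0.15, adjusted p = 6.64e-08), and Ero1b fell from 67.4 ± 11.7 to 7.78 ± 3.05 CPM (-3.14 ± 0.20, adjusted p = 4.69e-11, edgeR). In sgTrp53 + MYC tumors they were at 56.8 ± 10.3 and 9.29 ± 1.40 CPM. Pdia6, a disulfide isomerase, was higher in FGF19/Aldafermin + MYC than in sgTrp53 + MYC tumors by 0.78 and Txndc5 by 0.48, while Tmx3 was lower, at -0.52.

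Among 14 other sensors and transcription factors, 6 were higher and 4 lower than in livers in FGF19/Aldafermin + MYC tumors, and 5 were higher and 4 lower in sgTrp53 + MYC tumors. These too are near the shares of all genes, 39.2% higher and 34.5% lower, and 36.9% and 33%. Ern1, which encodes the sensor IRE1, fell from 123 ± 6.28 CPM in livers to 31.3 ± 11.6 CPM in FGF19/Aldafermin + MYC and 33.1 ± 7.12 CPM in sgTrp53 + MYC tumors (log2 fold changes -2.003 ± 0.22 and -1.90 ± 0.28, adjusted p = 1.24e-07 and 5.46e-06, edgeR). Atf6b, the paralog of Atf6, moved the other way from it, from 23.2 ± 1.27 CPM in livers to 67.7 ± 8.12 and 38.5 ± 3.59 CPM, and differed between the tumors by 0.81 ± 0.10 (adjusted p = 2.76e-05). Mbtps2, the protease that makes the last cut in ATF6, rose by 1.94 and 2.13 over livers. Creb3l3, a membrane-bound factor of hepatocytes, fell from 643 ± 77.3 to 209 ± 76.8 and 126 ± 39.5 CPM.

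In the branch of PERK and ATF4, 4 of 11 genes were higher and 3 lower than in livers in FGF19/Aldafermin + MYC tumors, whereas 2 were higher and 7 lower in sgTrp53 + MYC tumors. All genes had 39.2% higher and 34.5% lower, and 36.9% and 33%. Between the tumors 6 of the 11 were higher and none was lower, where 11.6% of all genes were higher and 12.1% lower. Sesn2 was at 26.1 ± 10.4 CPM in FGF19/Aldafermin + MYC against 5.95 ± 2.59 CPM in sgTrp53 + MYC tumors (log2 fold change 2.11 ± 0.35, adjusted p = 0.000345, edgeR). Sesn2 is also a known target of p53. Trib3 differed by 1.72 and Atf3 by 1.45, and Atf3 was higher than in livers in both kinds of tumor, by 2.95 and 1.498.

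Of 24 genes of the translocon, signal peptidase and oligosaccharyltransferase, 14 were higher and 2 lower than in livers in FGF19/Aldafermin + MYC tumors, with a median log2 fold change of 0.67, and 9 were higher and 4 lower in sgTrp53 + MYC tumors, with a median of 0.04. All genes had 39.2% higher and 34.5% lower in the first comparison and 36.9% and 33% in the second, so the share higher in sgTrp53 + MYC tumors is near that of all genes, and the same shares apply to the exit and heat shock genes. Between the tumors 9 were higher and none was lower, against 11.6% and 12.1% of all genes. Sec61a1, the channel itself, was at 292 ± 54.1 CPM in livers, 498 ± 50.1 CPM in FGF19/Aldafermin + MYC and 273 ± 68.5 CPM in sgTrp53 + MYC tumors. The last 2 differed by 0.87 ± 0.15 (adjusted p = 0.00047, edgeR). Srprb, part of the receptor for the signal recognition particle, was 1.69 and 0.92 above livers. Of 16 genes of ER exit and retrieval, 5 were higher and 5 lower than in livers in FGF19/Aldafermin + MYC tumors and 1 was higher and 9 lower in sgTrp53 + MYC tumors. Kdelr2, a receptor that returns BiP and other lumenal proteins to the ER, differed between the tumors by 0.81 ± 0.09 (adjusted p = 9.72e-06). For contrast outside the ER, 7 of 10 cytosolic heat shock genes were higher and 1 lower than in livers in FGF19/Aldafermin + MYC tumors, 6 were higher and 2 lower in sgTrp53 + MYC tumors, and 1 differed between the tumors, Dnajb1. On total counts in place of TMM, 11 of the 20 degradation genes were higher and 7 lower than in livers in FGF19/Aldafermin + MYC tumors, so these counts against livers hold for the TMM scale.

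**Figure D5:**
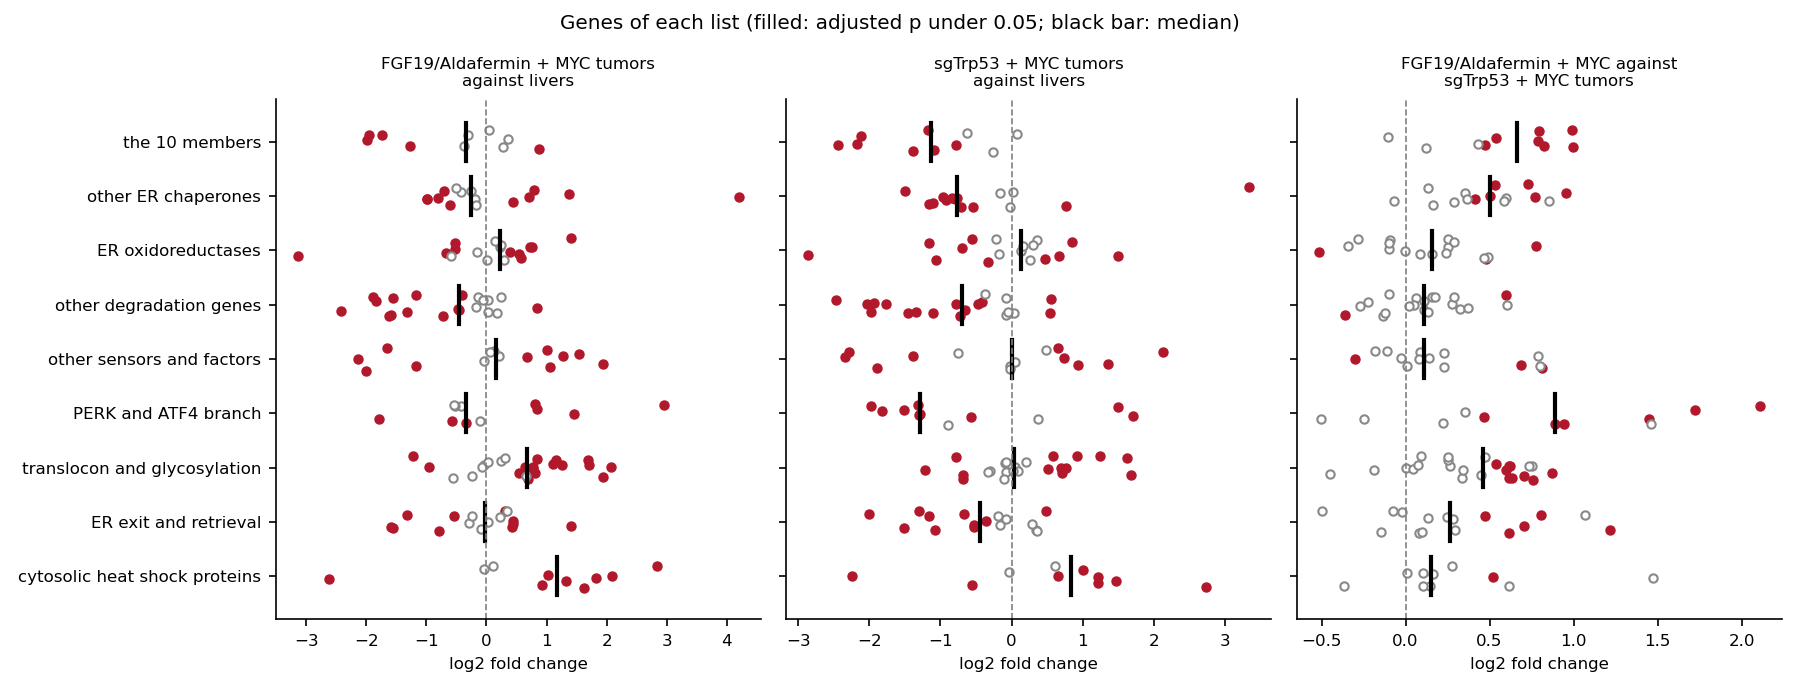
Log2 fold change of every tested gene of each list in each comparison, a point for each gene, filled where the adjusted p is under 0.05, with a black bar for the median of the list. In the degradation list 12 genes are lower and 1 is higher in FGF19/Aldafermin + MYC tumors than in livers, against 2 lower and 14 higher in the translocon list.

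The genes whose pattern over the 20 libraries was most like that of Hspa5, by the root mean square difference between centered log2 CPM, were Sec61a1 at 0.17, Tmed9 at 0.19, Fam3c and Hyou1 at 0.21 and Actr3-ps at 0.23. Among the members Hsp90b1 was closest to Hspa5, at 0.33, and Dnajb9 farthest, at 1.23. Tmed9, a cargo receptor of the early secretory pathway, had 68.2 ± 8.35 CPM in livers, 147 ± 15.3 CPM in FGF19/Aldafermin + MYC and 73.0 ± 12.1 CPM in sgTrp53 + MYC tumors. For Xbp1 the closest were Naglu and Serpinf2 at 0.28, Tspan14 at 0.30, Ralgps2 at 0.31 and Slc44a1 at 0.33, and the closest member was Pdia4 at 0.44. Serpinf2, a protease inhibitor that hepatocytes secrete, had 1646 ± 310.1 CPM in livers, 1166 ± 97.0 CPM in FGF19/Aldafermin + MYC and 549 ± 235 CPM in sgTrp53 + MYC tumors. The distance of Xbp1 to Dnajb9, one of the genes it is known to drive, was 0.80, and to Edem1 0.72.

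Some libraries were at the edge of their group for several of the genes. FGF19 + MYC replicate 1 had the lowest value of its group for 6 of the 10 genes, Hspa5, Hsp90b1, Xbp1, Pdia4, Calr and Edem1. Its 18004977 reads were the fewest of any library, and 34.0% of its reads were not aligned. In sgTrp53 + MYC tumors replicate 4 was highest for 5 genes, Hspa5, Hsp90b1, Xbp1, Atf6 and Pdia4, and replicate 1 for the other genes but Edem1. Aldafermin + MYC replicate 5 was highest for 6 genes of its group, and liver replicate 4 for 5. The summed level of the 10 genes was 3532 to 4521 CPM in livers, 2538 to 3811 in FGF19 + MYC, 3303 to 4056 in Aldafermin + MYC and 1795 to 2918 in sgTrp53 + MYC tumors. The last range overlapped with FGF19 + MYC through replicate 1 of that group.

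Several values move with the difference between the tumor kinds and their part in it was not tested. Among hepatocyte markers 5 of 8 were higher and 1, Cps1, lower in FGF19/Aldafermin + MYC than in sgTrp53 + MYC tumors. Cholangiocyte markers went the other way in 4 of 4 tested, and their summed level reached 312 CPM in 1 sgTrp53 + MYC tumor, where the group's median was 3.32 CPM, against at most 6.29 CPM in FGF19/Aldafermin + MYC tumors. Of 6 macrophage markers 4 were higher in FGF19/Aldafermin + MYC tumors. Over all genes 11.6% were higher and 12.1% lower. Over 13794 of the 14333 genes, log2 fold change between the tumors had a Spearman rank correlation of 0.33 with GC content and -0.22 with exon length, which describes genes of the same libraries. After removal of these trends the calls of Hspa5, Hsp90b1, Calr, Pdia4, Xbp1 and Edem1 stood, and that of Sdf2l1 was lost. Exons of Hspa5 share 2457 bases, 44.2% of their length, with Rabepk on the opposite strand, and those of Xbp1 share 1526 bases, 22.02%, with Ccdc117. The strand setting of the counting is not given in the sources used here. Rabepk was at 33.9 ± 11.4 CPM in FGF19/Aldafermin + MYC and 37.4 ± 16.4 CPM in sgTrp53 + MYC tumors, against 9.81 ± 1.15 CPM in livers, and Ccdc117 at 41.0 ± 6.17 and 38.6 ± 6.67 CPM. Reads over shared bases may have been left uncounted as ambiguous, and the part of this in the values of Hspa5 and Xbp1 was not tested.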

How the data were processed

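The authors sequenced stranded mRNA libraries, demultiplexed them with bcl2fastq 2.20.0.422, aligned reads to mm39 with HISAT2 and counted reads per RefSeq gene with htseq-count. The deposited values are raw counts per gene in 2 tables, one holding the sgTrp53 + MYC tumors. The 5 summary lines of the counter were removed. The 10 genes and all lists were chosen with earlier results of these data known. Libraries were grouped by their labels, and no 2 libraries of a group agreed within sampling noise (smallest chi-square per degree of freedom 13.9).

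A gene was kept if 5 or more libraries had 1 CPM or more (14333 genes). All 20 libraries were fitted together, without covariates, with edgeR 4.0.16 (R 4.3.3), TMM factors, and the quasi-likelihood test on contrasts between groups, with Benjamini-Hochberg adjustment over all genes and a threshold of 0.05. CPM and fold changes are on the TMM scale, and CPM carry no prior count. A prior count of 2 entered only the log2 CPM behind pattern distances, GC and length trends and the pairing of libraries. Standard errors are the absolute log2 fold change over the square root of the F statistic, and 95% intervals use its degrees of freedom. Depth was 18004977 to 66354724 reads on genes per library, and intervals come from the spread between samples. Scripts were tested on simulated data. Alternatives were DESeq2 1.42.0, other scalings and filters, subsets of groups, a replicate block, removal of trends with GC content and length, and leaving out each library. Genes named with values beyond the 10 and Trp53 are, per list, the 3 past the threshold with the largest absolute log2 fold change in FGF19/Aldafermin + MYC tumors against livers and the 3 likewise against sgTrp53 + MYC tumors, and the 5 genes nearest in pattern to Hspa5 and to Xbp1. Of these, 1 gene is not reported here. Rabepk and Ccdc117 were added after their values were seen. Same-numbered libraries of different groups were not paired: 6 of 30 pairs had a correlation of deviations over 0.1 (range -0.333 to 0.333).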

Additional observations from a re-analysis of the deposited data

Results flagged for a closer look

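Of 40 sets of 5 libraries, 10 genes in 4 groups, 3 had a library far from the others by Dixon's criterion, where chance gives about 1 in 20. All 3 were the lowest value of FGF19 + MYC replicate 1: 629 CPM for Hspa5, 174 CPM for Pdia4 and 42.5 CPM for Edem1. That library had the fewest reads on genes, 18004977, and 34.0% of its reads were not aligned. The part of either in these values was not tested.

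The change from livers differed between the kinds of tumor for 7 genes by the test of the difference itself, where 23.7% of all genes tested were called. The calls of Hsp90b1, Edem1 and Sdf2l1 did not hold in every alternative. FGF19/Aldafermin + MYC tumors exceeded sgTrp53 + MYC tumors, on the log2 scale, by 0.79 for Hspa5, 0.54 for Hsp90b1, 1.00 for Xbp1, 0.82 for Pdia4, 0.79 for Calr, 0.47 for Edem1 and 0.99 for Sdf2l1. The sgTrp53 + MYC libraries form their own count table, so table and group cannot be told apart.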

How the results depend on the processing

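Over the alternatives other than leaving out a library, 398 of the values of the 10 genes kept direction and side of the threshold, 16 turned direction, 16 passed newly and 10 no longer passed. Against livers in FGF19/Aldafermin + MYC tumors, total counts gave 5 genes higher and no filter 2, and the log2 fold change turned for Xbp1 (0.48) and Calr (0.55) on total counts, for Sdf2l1 under the GC and length correction (-0.19), and for Pdia4 with RLE factors or DESeq2 (-0.0235 and -0.0231), with only the groups compared (-0.0132) and under the GC and length correction (-0.0122). In sgTrp53 + MYC tumors, total counts gave 2 higher and 3 lower, with Hsp90b1 at 0.63, Pdia4 at 0.10 and Sdf2l1 at 0.22, and no filter put Hsp90b1 at 0.0311 and the GC and length correction Hspa5 at -0.10. Between the tumors Atf6 was 0.0259 under that correction and 0.0479 with FGF19 + MYC alone, and Dnajb9 -0.0129 with Aldafermin + MYC alone. Hsp90b1 against livers passed as higher without the filter (adjusted p = 0.0447, edgeR) in FGF19/Aldafermin + MYC and as lower under that correction (adjusted p = 0.0245, edgeR) in sgTrp53 + MYC tumors. Between the tumors Edem1 did not pass without the filter (adjusted p = 0.0807, edgeR) or with Aldafermin + MYC alone (adjusted p = 0.0589, edgeR). Sdf2l1 between Aldafermin and FGF19 was -0.0894 under the correction. Leaving out a library gave 1 to 2 genes higher and 4 to 5 lower against livers in FGF19/Aldafermin + MYC, 7 to 8 lower in sgTrp53 + MYC and 6 to 7 higher between the tumors. It turned Pdia4 (-0.0383 to 0.0921) and, in sgTrp53 + MYC, Hspa5 (-0.0472 to 0.16) against livers, and between Aldafermin and FGF19 Xbp1 (-0.19 to 0.0246), Pdia4 (-0.0286 to 0.0890), Sdf2l1 (-0.17 to 0.14), Hspa5 (-0.0032 to 0.15) and Hsp90b1 (-0.0649 to 0.14). With the replicate number as a block, 1 gene was higher and 5 lower, 7 lower, 7 higher and 0 called in the 4 comparisons, and only Xbp1 in FGF19/Aldafermin + MYC tumors against livers changed its call (adjusted p = 0.0483, edgeR). Between Aldafermin and FGF19, DESeq2 called 96 genes, edgeR's likelihood ratio test 59, its quasi-likelihood test 2 with RLE factors and 0 with TMM. The causes of these changes were not tested.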
